A study of Mus musculus with 32 samples.

Results

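MAPK feedback genes were examined in YUMM3.3 cells, a mouse melanoma line, after stimulation with IFN-γ and Activin-A. They are 10 genes that the RAS-RAF-MEK-ERK cascade is known to switch on: Dusp4, Dusp6, Spry1, Spry2, Spry4, Spred1, Etv4, Etv5, Phlda1 and Ccnd1. The genes were chosen by name, as the rows of the deposited count table whose Ensembl identifier maps to one of these symbols, and 10 of 10 were found among the 12451 genes of the table. Total RNA of 32 wells was profiled by BRB-seq, a method that tags the cDNA of every well with its own barcode, sequences all wells together and reads transcripts at the 3′ end. The wells formed 8 groups of 4: untreated cells, cells given 40 ng/ml Activin-A, cells given 20 ng/ml IFN-γ, and cells given both, each harvested at 4 hrs and at 12 hrs. All groups are cultures of the same cell line, so that the wells measure the spread within it and not between tumors or animals. The study asked how Activin-A, a ligand of the TGF-β family, and IFN-γ act together on melanoma cells outside a tumor.

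YUMM lines are derived from melanomas of mice that carry an activated Braf allele. Braf encodes a kinase that phosphorylates MEK, and MEK in turn activates ERK. Active ERK induces its own inhibitors, so that in Braf-mutant melanoma the level of these transcripts is commonly used as a reading of pathway output. Dusp6 encodes a phosphatase that inactivates ERK in the cytoplasm, and Dusp4 a related phosphatase of the nucleus. Sprouty proteins (Spry1, Spry2 and Spry4) and Spred1 restrain the cascade upstream, at the level of RAS and RAF. Etv4 and Etv5 encode ETS transcription factors, Ccnd1 encodes cyclin D1, which drives entry into the cell cycle, and Phlda1 encodes a pleckstrin homology-like domain protein. IFN-γ signals through JAK kinases, and Activin-A through SMAD2 and SMAD3. Per the study's introduction, activin receptors can also act through MAPK pathways. Its discussion lists ERK activation among the ways described for IFN-γ to slow the growth of cancer cells. The study states that a part of ERK in the growth effect in YUMM3.3 cells is still to be determined. Such a part was not tested here. The study describes YUMM3.3 as Braf mutant, and the sample labels give no genotype.

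Totals per well ranged from 654539 to 1455074 counts, with a median of 988019.5. Levels below are CPM, counts of a gene scaled to a common total of counts per well, after TMM normalization, which corrects totals for differences in composition. On the totals before TMM normalization, a count of 3 corresponded to between 2.06 and 4.58 CPM. Each transcript is read at its 3′ end. Levels were compared between wells and not between genes. Log2 fold changes (log2FC) come from edgeR's quasi-likelihood test. A gene was called at a Benjamini-Hochberg adjusted p under 0.05 over all genes tested. Standard errors (SE) were derived from that test, as the absolute log2FC divided by the square root of its F statistic. Confidence intervals were built from them. Such an SE is unreliable where the log2FC is almost 0. Well 1 of Activin-A at 4 hrs stood apart: in pairs of wells of a group, a chi-square statistic per gene lay between 1.16 and 1.54, but between 2.45 and 2.89 for pairs with that well. Log2 fold changes against or of Activin-A alone at 4 hrs are therefore given with and without it. Where wells of compared groups are said to be apart or not to overlap, this is a description. The share of all genes with such wells was not determined. As a check of the treatments, Gbp2, a GTPase gene induced by interferons, rose from 60.3 ± 5.80 CPM (mean ± SD, n = 4) in untreated cells to 3509 ± 160.3 CPM with IFN-γ at 4 hrs, and Pmepa1, a target of SMAD proteins, from 56.0 ± 8.53 to 327 ± 34.3 CPM with Activin-A. Of 7 melanocyte lineage markers, 7 were in the table. Pmel was the highest, with group means between 116 and 134 CPM. Others were low, namely Sox10 (12.9 to 17.9 CPM), Tyr (10.8 to 14.4 CPM) and Mitf (5.65 to 10.2 CPM). Mitf had at most 13 counts in a well. Of 9 markers of leukocytes, endothelium and keratinocytes, Ptprc was the only one listed, with at most 5 counts in a well.

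The identifiers in the table were ENSMUSG00000031530 for Dusp4, ENSMUSG00000019960 for Dusp6, ENSMUSG00000037211 for Spry1, ENSMUSG00000022114 for Spry2 and ENSMUSG00000024427 for Spry4. They were ENSMUSG00000027351 for Spred1, ENSMUSG00000017724 for Etv4, ENSMUSG00000013089 for Etv5, ENSMUSG00000020205 for Phlda1 and ENSMUSG00000070348 for Ccnd1. Depth differed widely between the genes. Ccnd1 had between 1050 and 2638 counts in a well and Dusp6 between 118 and 375, whereas Dusp4 had between 3 and 25 and Spry1 between 1 and 18. The filter on low counts left 9 of the 10 genes for testing at 4 hrs, where Spry1 was lost, and 10 of 10 at 12 hrs. Between the highest and the lowest group mean, levels differed 2.05-fold for Dusp6, 1.80-fold for Spry4, 1.55-fold for Etv5 and 1.47-fold for Spry2. The ratio was 1.42 for Spred1, 1.30 for Ccnd1, and 1.21 for both Etv4 and Phlda1. The genes with the fewest counts, Spry1 and Dusp4, had ratios of 2.86 and 1.73.

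**Figure D1:**
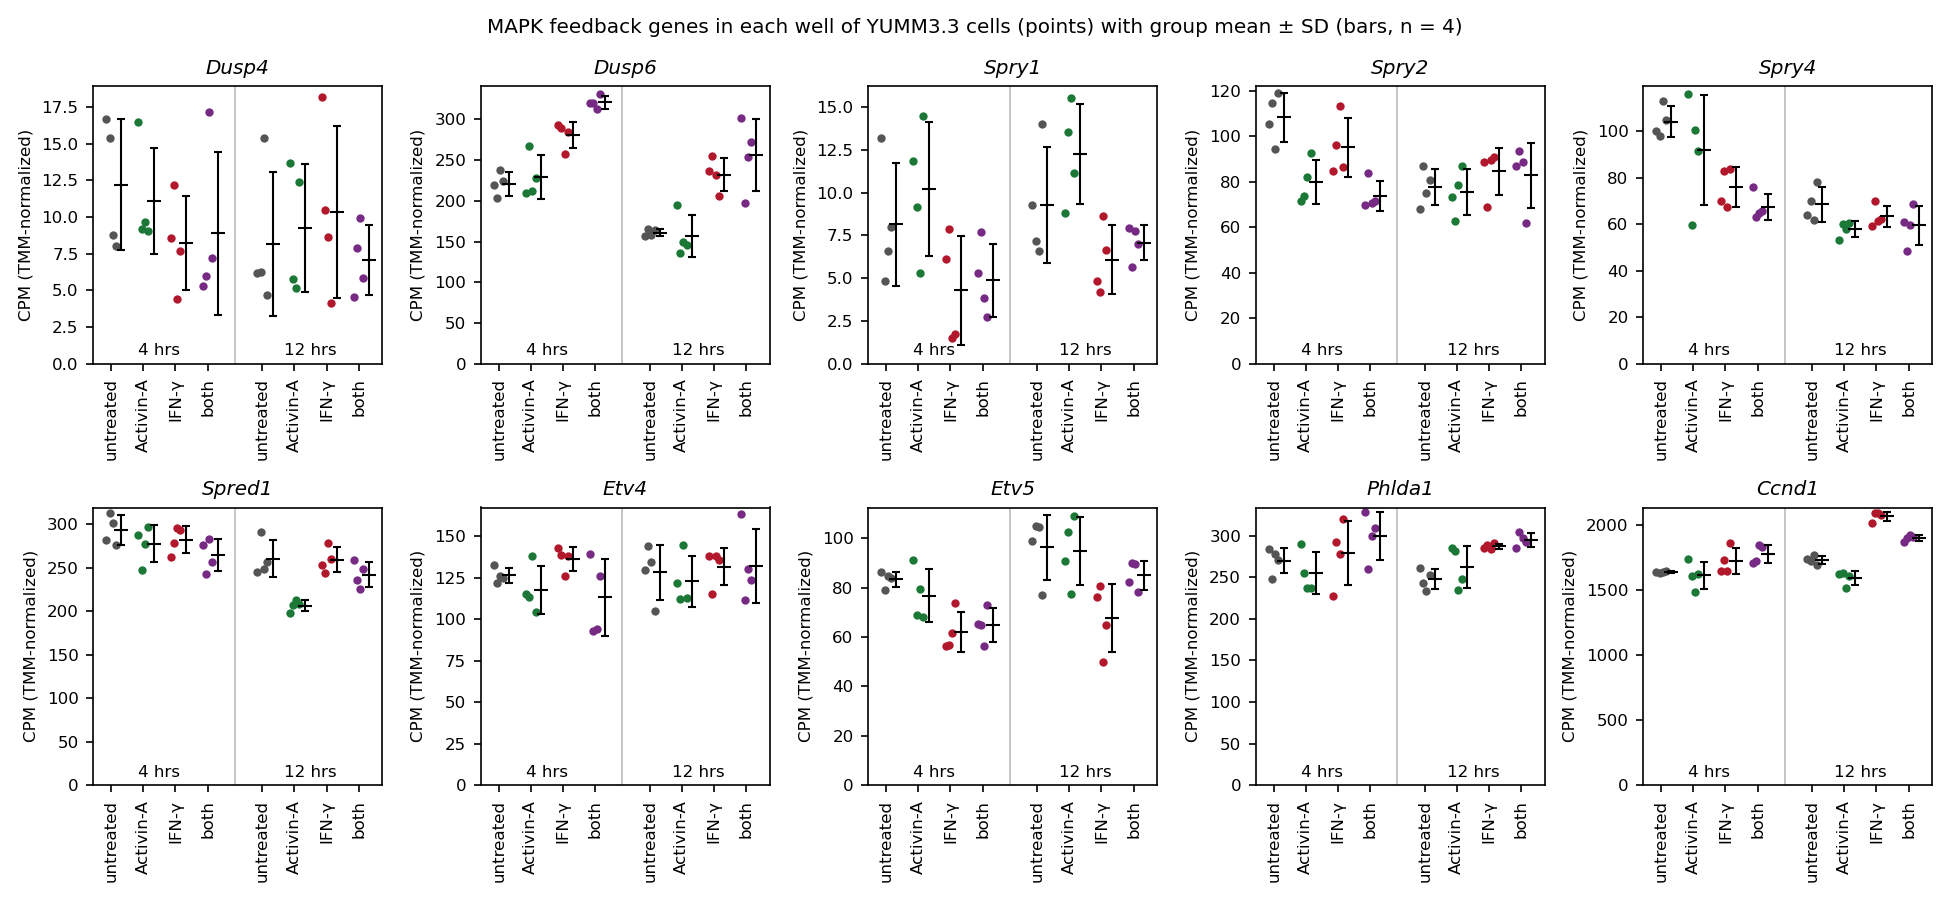
The plots show the level of each of the 10 genes in each well (points, TMM-normalized CPM on a linear axis from 0) by treatment and time, with the group mean ± SD (bars, n = 4). Dusp6 was lowest in untreated cells and cells given Activin-A at 12 hrs (161 and 156 CPM) and highest with both factors at 4 hrs (321 CPM), while Dusp4 and Spry1 scatter around means of 9.41 and 7.77 CPM.

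Among the 10 genes, Dusp6 had the lowest p in edgeR's F-test over the 8 groups (adjusted p = 3.31e-19). Its group means were, from the highest, 321 ± 7.67 CPM with both factors at 4 hrs, 281 ± 16.2 with IFN-γ at 4 hrs, 256 ± 44.0 with both at 12 hrs and 232 ± 20.5 with IFN-γ at 12 hrs. Activin-A at 4 hrs followed with 229 ± 27.1 CPM, then untreated cells at 4 hrs with 221 ± 14.5, untreated cells at 12 hrs with 161 ± 3.88 and Activin-A at 12 hrs with 156 ± 25.8. Within each time point, the means of the IFN-γ groups were above those of the groups without it. Between neighbours in this order, the wells overlapped from IFN-γ at 4 hrs down to untreated cells at 4 hrs, and again between the last pair of groups.

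To show the sequence ahead of a gene raised by IFN-γ (Dusp6), one lowered by IFN-γ (Etv5, at 12 hrs) and one lowered by Activin-A (Spry2, at 4 hrs), the 250 bases before the annotated start were taken for Dusp6, Spry2 and Etv5 from RefSeq's promoter windows of the GRCm38.p6 assembly. That build is not the one named in the submitters' processing notes. Windows were at hand for 5 of the 10 genes (Dusp6, Spry1, Spry2, Spred1 and Etv5). Dusp6 is on the plus strand, chr10:99262981-99263230, and Spry2 and Etv5 are on the minus strand, chr14:105896820-105897069 and chr16:22439571-22439820. Each run is written 5′ to 3′ along the gene, and capitals mark GGAA or its reverse complement TTCC, the core bound by ETS factors.
Dusp6: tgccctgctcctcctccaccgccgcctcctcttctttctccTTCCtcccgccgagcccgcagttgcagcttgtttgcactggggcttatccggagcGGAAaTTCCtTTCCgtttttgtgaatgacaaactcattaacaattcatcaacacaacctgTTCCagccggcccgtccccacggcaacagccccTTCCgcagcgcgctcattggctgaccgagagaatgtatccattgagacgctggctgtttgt
Spry2: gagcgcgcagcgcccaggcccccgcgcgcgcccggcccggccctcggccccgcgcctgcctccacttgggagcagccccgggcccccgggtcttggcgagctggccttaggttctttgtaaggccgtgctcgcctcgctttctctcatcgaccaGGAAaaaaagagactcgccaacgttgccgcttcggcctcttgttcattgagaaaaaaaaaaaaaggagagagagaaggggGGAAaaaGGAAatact
Etv5: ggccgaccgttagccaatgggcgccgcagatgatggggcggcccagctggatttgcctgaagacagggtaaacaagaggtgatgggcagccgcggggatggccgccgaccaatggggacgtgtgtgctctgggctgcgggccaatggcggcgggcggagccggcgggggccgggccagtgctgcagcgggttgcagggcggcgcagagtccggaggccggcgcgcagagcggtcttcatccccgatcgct

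The core occurred 6 times before the Dusp6 start, 3 times before that of Spry2, and 0 times in the Etv5 sequence printed, although a second annotated Etv5 start had 4. Over all 32851 windows, 93.4% held the core in those 250 bases and the median was 3, so that a match is common. This core was chosen after the windows were seen. Longer motifs were searched on both strands in the whole windows of 300 bases: TGACTCA with its reverse complement TGAGTCA (AP-1), CCGGAAGT (ETS) and GTCTAGAC (SMAD). The letters of these motifs were in 0 of the 6 windows of the feedback genes. They were in 5.20%, 3.89% and 0.213% of all windows, respectively. An absent match says only that these letters are not in these bases.

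IFN-γ alone raised Dusp6 and lowered Spry4 at 4 hrs. Dusp6 was at 219, 203, 238 and 224 CPM in the 4 untreated wells and at 293, 289, 257 and 285 CPM in the IFN-γ wells. The groups did not overlap. The level was 1.29-fold higher with IFN-γ (log2FC 0.36, SE 0.08, edgeR's adjusted p = 0.00145), and Dusp6 was called under 7 of 7 alternatives that kept all samples.

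Spry4, the Sprouty gene that fell, was at 100.2, 98.1, 113 and 105 CPM in untreated wells and at 69.8, 82.8, 67.6 and 84.0 CPM in IFN-γ wells. These did not overlap either, and Spry4 fell by 25.0% (log2FC -0.41, SE 0.13, adjusted p = 0.0441 by edgeR's quasi-likelihood test). This call was close to the threshold. It held under 4 of 7 alternatives. It was lost with DESeq2 (adjusted p = 0.154), with the replicate block (0.0597), with at least 10 counts in every sample (0.0565) and without untreated well 1, 2, 3 or 4 or IFN-γ well 1, 2 or 3, with adjusted p between 0.0559 and 0.147.

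Of the 9 genes tested at 4 hrs, 2 were called, while 5.06% of all 9137 genes were. The median log2FC of the 9 genes was -0.045, against -0.0066 over all genes tested. Etv5 was at 86.1, 78.9, 84.5 and 83.9 CPM in untreated wells and at 56.3, 56.7, 61.7 and 73.7 CPM with IFN-γ, again without overlap. Its log2FC of -0.40 (SE 0.13) had an adjusted p of 0.0590 in edgeR's fit. Etv5 was called when only the 8 wells compared were fitted (adjusted p = 0.0400) and without IFN-γ well 4 (log2FC -0.52, adjusted p = 0.0201). For the other genes tested, log2FC lay between -0.51 (Dusp4, 95% confidence interval -1.24 to 0.21) and 0.12 (Etv4, -0.10 to 0.34). Ccnd1 had a log2FC of 0.08 (-0.03 to 0.20), Phlda1 of 0.07 (-0.11 to 0.25), Spred1 of -0.05 (-0.20 to 0.11) and Spry2 of -0.20 (-0.43 to 0.04). Spry1, too low to be tested, was between 1.47 and 7.85 CPM with IFN-γ and between 4.81 and 13.2 CPM without, and these wells overlapped.

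At 12 hrs, IFN-γ raised Dusp6 and Ccnd1 and lowered Etv5. Dusp6 was at 157, 165, 159 and 164 CPM in untreated wells and at 237, 255, 232 and 205 CPM in IFN-γ wells. No well of one group reached the other, and the difference was 1.43-fold (log2FC 0.52, SE 0.09, adjusted p = 5.09e-06, edgeR).

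Ccnd1, the most deeply counted of the 10 genes, was at 1740.2, 1723, 1770.2 and 1694 CPM in untreated wells and at 2018, 2091, 2092 and 2078 CPM with IFN-γ. The gap between the groups was several times the spread within them, for a small change of 1.19-fold (log2FC 0.26, SE 0.05, adjusted p = 8.55e-06, edgeR). In the GRCm38 annotation Ccnd1 overlaps LTO1 on the opposite strand, and whether counting used the strand was not given in the sources used here. LTO1 itself was at 33.6 ± 5.90 CPM with IFN-γ and 40.2 ± 9.77 CPM in untreated cells at 12 hrs, and its log2FC was -0.24.

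Etv5 was at 99.0, 105, 105 and 77.2 CPM in untreated wells and at 76.4, 80.5, 49.7 and 64.8 CPM with IFN-γ at 12 hrs. Untreated well 4 lay within the range of the IFN-γ wells, so that the groups overlapped. Etv5 fell by 30.5% (log2FC -0.52, SE 0.13, adjusted p = 0.00138, edgeR), and the call held on leaving out each of the 8 wells in turn, with adjusted p up to 0.0264. Its paralog Etv4 had a log2FC of 0.02 (95% confidence interval -0.18 to 0.23).

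In all, 3 of the 10 genes were called for IFN-γ at 12 hrs, while 9.25% of 8971 genes were, and the median log2FC of the 10 was 0.076 against -0.0098 over all genes tested. Phlda1 was at 285, 289, 284 and 291 CPM with IFN-γ and at 261, 243, 233 and 253 CPM in untreated cells at 12 hrs. Its wells did not overlap, but its log2FC of 0.21 (SE 0.07) had an adjusted p of 0.0552 by edgeR, and it was called under 3 of 7 alternatives. Spry4, called at 4 hrs, had a log2FC of -0.11 (-0.37 to 0.16) at 12 hrs. The intervals of Spred1 (-0.16 to 0.14) and Spry2 (-0.12 to 0.38) also held 0, as did those of Dusp4 (-0.47 to 1.07) and Spry1 (-1.33 to 0.20), which were wide at this depth.

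The effect of IFN-γ at 12 hrs was compared with that at 4 hrs in a contrast over all 32 wells. Of the 10 genes, 0 were called with edgeR and 0 with DESeq2, while 0.579% of 9332 genes were called with edgeR. An unadjusted p under 0.05 was found for 689 of the 9332 genes and for 1 of the 10. That gene was Ccnd1, whose effect at 12 hrs exceeded that at 4 hrs by 0.19 on the log2 scale (95% confidence interval 0.04 to 0.33, adjusted p = 0.455). For Spry4 the difference was 0.32 (-0.04 to 0.69), and for Etv5 -0.11 (-0.48 to 0.26). A difference between the time points in the effect of IFN-γ was therefore not shown for any of these genes.

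**Figure D2:**
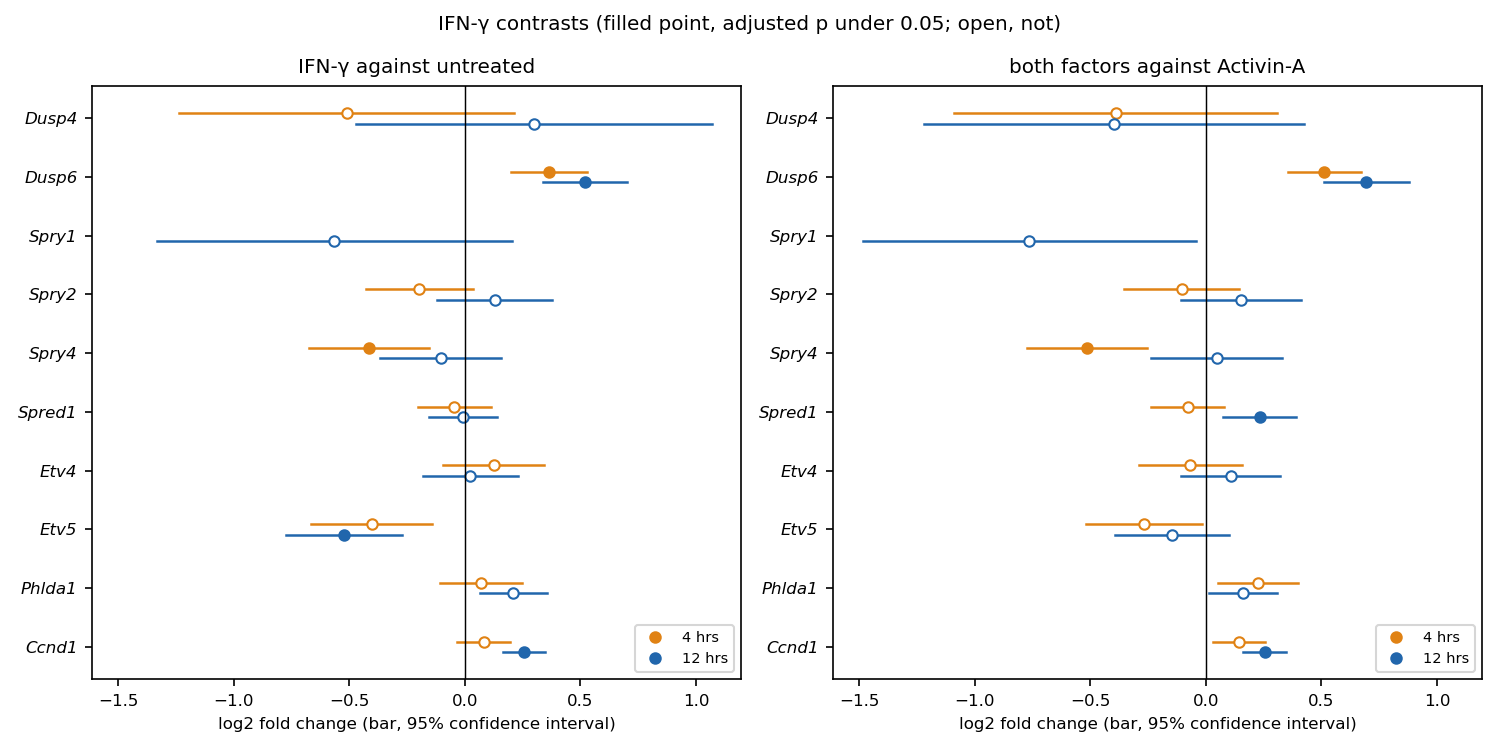
Log2 fold changes of the 10 genes for IFN-γ against untreated cells (left) and for both factors against Activin-A alone (right), at 4 hrs (orange) and 12 hrs (blue); bars are 95% confidence intervals and filled points have an adjusted p under 0.05. Dusp6 was higher in each of the 4 contrasts, with log2FC from 0.36 to 0.69, and Spry1 has no point at 4 hrs because it was not tested there.

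The same question was put in the presence of Activin-A, by comparing cells given both factors with cells given Activin-A alone. Dusp6 was higher with both factors at 4 hrs, at 320.4, 320.3, 312 and 331 CPM against 209, 268, 212 and 228 CPM with Activin-A alone. Again the groups were apart, by 1.43-fold (log2FC 0.51, SE 0.08, adjusted p = 1.48e-06, edgeR), and without the Activin-A well that stood apart the log2FC was 0.47. At 12 hrs Dusp6 was at 302, 197, 253 and 273 CPM with both factors and at 194, 136, 149 and 146 CPM with Activin-A alone. The lowest well of the former was close to the highest of the latter, and the mean difference was 1.62-fold (log2FC 0.69, SE 0.09, adjusted p = 1.40e-09, edgeR).

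Spry4 was at 75.9, 63.2, 64.8 and 65.9 CPM with both factors at 4 hrs and at 116, 59.7, 100.5 and 91.6 CPM with Activin-A alone. Activin-A well 2 was below all wells with both factors. Spry4 fell by 29.9% (log2FC -0.51, SE 0.13, adjusted p = 0.00572, edgeR), but without Activin-A well 1, the one that stood apart, the log2FC was -0.37 and the adjusted p 0.105. At 12 hrs the log2FC of Spry4 was 0.05 (-0.24 to 0.33).

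Of the 9 genes tested, 2 were called for both factors against Activin-A at 4 hrs, while 6.07% of all genes were. The median log2FC with all wells was -0.079 against -0.012 over all genes. Without Activin-A well 1, the calls were instead Dusp6, Phlda1 (log2FC 0.31, adjusted p = 0.0144) and Ccnd1 (log2FC 0.19, adjusted p = 0.00981). With that well, Phlda1 had a log2FC of 0.22 (SE 0.09) and Ccnd1 of 0.14 (SE 0.06), with adjusted p of 0.134 and 0.152 in edgeR's fit.

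At 12 hrs, 3 of 10 genes were called for both factors against Activin-A, Dusp6, Ccnd1 and Spred1, while 9.62% of all genes were, and the median log2FC was 0.13 against -0.0075. Ccnd1 was at 1867, 1904, 1923 and 1912 CPM with both factors and at 1621, 1630.0, 1515 and 1611 CPM with Activin-A alone. The groups were apart, and the ratio was 1.19 (log2FC 0.26, SE 0.05, adjusted p = 1.23e-05, edgeR). Spred1 was at 259, 236, 226 and 248 CPM with both factors and at 198, 207, 213 and 208 CPM with Activin-A alone. It was 1.18-fold higher without overlap of the wells (log2FC 0.23, SE 0.08, adjusted p = 0.0463, edgeR). The Spred1 call held under 1 of 7 alternatives and was lost without Activin-A well 1, 2, 3 or 4 or well 1, 2 or 4 with both factors, with adjusted p between 0.0541 and 0.168. Etv5, called for IFN-γ alone at this time, was here at 82.4, 90.2, 89.6 and 78.1 CPM against 90.8, 103, 77.6 and 109 CPM, with a log2FC of -0.15 (-0.39 to 0.10). Spry1, with at most 18 counts in a well, went lower, with a log2FC of -0.76 (-1.49 to -0.04). Its wells did not overlap, but it was not called (adjusted p = 0.216, edgeR).

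Activin-A alone lowered Spry2 at 4 hrs and Spred1 at 12 hrs. At 4 hrs Spry2 was at 105, 114, 94.4 and 119 CPM in untreated wells and at 71.3, 73.5, 82.0 and 92.5 CPM with Activin-A. The highest Activin-A well lay just under the lowest untreated well. Spry2 fell by 26.2% (log2FC -0.44, SE 0.12, adjusted p = 0.0310, edgeR). The adjusted p was 0.179 with DESeq2, 0.0579 when only the 8 wells compared were fitted, and 0.135 without Activin-A well 1, where the log2FC was -0.37. The call was also lost without Activin-A well 2 (0.0767) or untreated well 1 (0.0630), 2 (0.112) or 4 (0.143). Of the 9 genes tested it was the 1 called, while 1.64% of all genes were called, and the median log2FC was -0.082 against -0.0017. That median was taken with Activin-A well 1, and the values of single genes without it are given below.

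At 12 hrs Spred1 was at 245, 291, 249 and 257 CPM in untreated wells and at 198, 207, 213 and 208 CPM with Activin-A. The groups did not overlap, and the Activin-A wells lay within a narrow range. Spred1 fell by 21.1% (log2FC -0.34, SE 0.08, adjusted p = 0.00196, edgeR). The call held under 7 of 7 alternatives and on leaving out each of the 8 wells, with adjusted p up to 0.0492. Of the 10 genes, 1 was called, while 2.41% of all genes were, and the median log2FC was -0.049 against -0.0031. In wells of a culture, less RNA per cell and fewer cells that express a gene cannot be told apart.

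The remaining values for Activin-A alone were not called. Dusp6 had a log2FC of 0.04 (-0.13 to 0.20) at 4 hrs and -0.03 (-0.22 to 0.17) at 12 hrs. For Ccnd1 they were -0.02 (-0.13 to 0.09) and -0.12 (-0.22 to -0.03), the latter with an adjusted p of 0.194 in edgeR's fit and wells that did not overlap. Etv4 and Etv5 were between -0.10 and -0.04 at both times, and Phlda1 was at -0.07 (-0.25 to 0.10) and 0.09 (-0.06 to 0.23). Spry4 was at -0.11 (-0.35 to 0.13) and -0.25 (-0.51 to 0.02). Spred1 was at -0.06 (-0.22 to 0.09) at 4 hrs and Spry2 at -0.05 (-0.31 to 0.20) at 12 hrs. Dusp4, with at most 25 counts in a well, was at -0.08 (-0.74 to 0.57) and 0.23 (-0.54 to 1.00), and Spry1 at 12 hrs was at 0.40 (-0.25 to 1.06). The values at 4 hrs moved without Activin-A well 1, the one that stood apart. Without it they were -0.41 for Dusp4, -0.25 for Spry4, -0.20 for Etv5 and -0.16 for Phlda1, and they were -0.08 for both Spred1 and Etv4, -0.06 for Ccnd1 and 0.07 for Dusp6. The adjusted p of these 8 genes then lay between 0.490 and 0.881 in edgeR's fit.

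The difference between the Activin-A effects at 12 hrs and at 4 hrs was called for 0 of 10 genes with edgeR and 0 with DESeq2. With edgeR it was called for 0.0214% of all 9332 genes. An unadjusted p under 0.05 was found for 569 of the 9332 genes and for 2 of the 10. These were Spry2, with a difference of 0.39 (95% confidence interval 0.05 to 0.74, adjusted p = 0.782), and Spred1, with -0.27 (-0.49 to -0.06, adjusted p = 0.742). Without Activin-A well 1 at 4 hrs the differences were 0.31 and -0.27. A call at one time and not at the other is thus not shown to be a difference between the times.

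Adding Activin-A to IFN-γ changed none of these genes at the threshold. At 4 hrs, 0 of 9 genes were called with edgeR and 0 with DESeq2, while 0.810% of all 9137 genes were called with edgeR. An unadjusted p under 0.05 was found for 850 of the 9137 genes and for 3 of the 9. At 12 hrs, 0 of 10 were called with both tools, while 1.03% of all 8971 genes were called with edgeR. Here 921 of the 8971 genes and 2 of the 10 had an unadjusted p under 0.05. The medians were 0.039 and -0.011, against -0.0077 and -0.0074 over all genes tested. At 4 hrs the genes with an unadjusted p under 0.05 were Dusp6 (log2FC 0.18, 0.03 to 0.34), Spry2 (-0.35, -0.59 to -0.10) and Etv4 (-0.29, -0.51 to -0.07). Dusp6 wells were apart in that comparison, at 257 to 293 CPM with IFN-γ alone and 312 to 331 CPM with both. Spry2 wells were also apart, at 84.5 to 113 CPM with IFN-γ alone and 69.6 to 83.7 CPM with both. At 12 hrs they were Ccnd1 (-0.12, -0.21 to -0.03) and Etv5 (0.33, 0.07 to 0.60). Ccnd1 wells were again apart, at 2018 to 2092 CPM with IFN-γ alone and 1867 to 1923 CPM with both. Adjusted p in edgeR's fit for these 5 values lay between 0.246 and 0.385. Wells that are apart are only a description here, since the share of all genes with such wells was not determined.

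**Figure D3:**
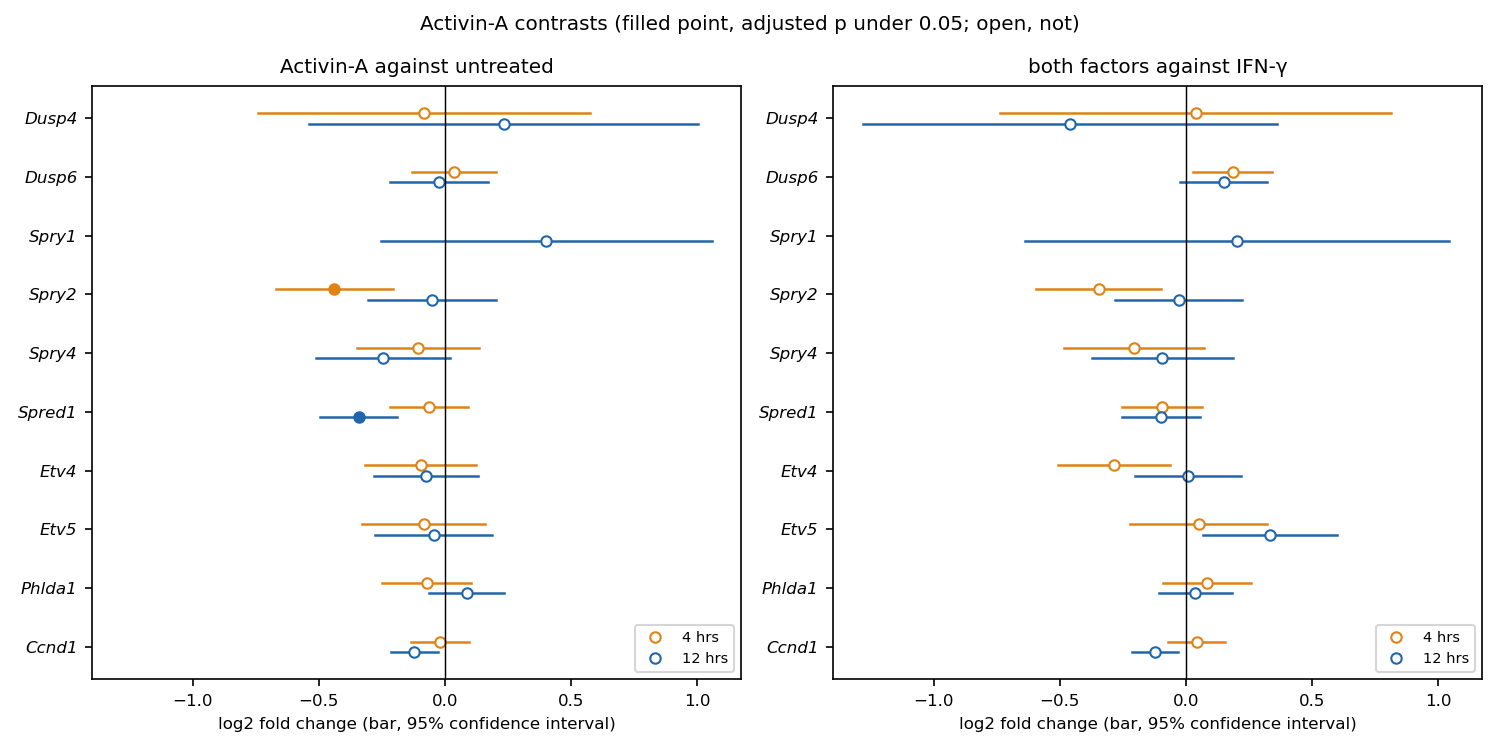
Log2 fold changes of the 10 genes for Activin-A against untreated cells (left) and for both factors against IFN-γ alone (right), at 4 hrs (orange) and 12 hrs (blue); bars are 95% confidence intervals and filled points have an adjusted p under 0.05. The filled points are Spry2 at 4 hrs (log2FC -0.44) and Spred1 at 12 hrs (-0.34) for Activin-A alone, and there are none for both factors against IFN-γ.

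The interaction, the effect of Activin-A with IFN-γ minus its effect without, tested directly whether one factor changed the effect of the other. With edgeR 0 of 9 genes were called at 4 hrs, where 0% of all 9137 genes were (505 had an unadjusted p under 0.05), and 0 of 10 at 12 hrs, where 0.0111% were. With DESeq2 the counts were also 0 and 0. At an unadjusted p under 0.05 there were 0 of the feedback genes at 4 hrs. At 12 hrs there were 612 of all 8971 genes and 2 of the 10, Spred1 (0.24, 95% confidence interval 0.03 to 0.46, adjusted p = 0.690) and Etv5 (0.38, 0.03 to 0.73, adjusted p = 0.711). For Dusp6 the interaction was 0.15 (-0.08 to 0.38) at 4 hrs and 0.17 (-0.09 to 0.43) at 12 hrs. For Ccnd1 it was 0.06 (-0.10 to 0.22) and 0.00016 (-0.13 to 0.13). Without the Activin-A well that stood apart, the values at 4 hrs were 0.12 for Dusp6 and 0.11 for Ccnd1. The 4 treatment comparisons of a time point share their groups of wells, and their values are therefore given side by side and not as independent results.

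Levels also differed between the times. In untreated cells, Dusp6, Spry2 and Spry4 were lower at 12 hrs than at 4 hrs, in wells that did not overlap for any of these genes. Dusp6 lay between 203 and 238 CPM at 4 hrs and between 157 and 165 CPM at 12 hrs, and fell by 27.1% (log2FC -0.46, SE 0.09, adjusted p = 0.000574, edgeR). Spry4 lay between 98.1 and 113 CPM and then between 61.6 and 78.3 CPM, and fell by 34.3% (log2FC -0.61, SE 0.12, adjusted p = 0.000395, edgeR). Spry2 lay between 94.4 and 119 CPM and then between 68.0 and 86.9 CPM, and fell by 28.8% (log2FC -0.49, SE 0.12, adjusted p = 0.00459, edgeR). Without untreated well 1 at 12 hrs, the adjusted p of Spry2 was 0.0544.

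Of the 10 genes, 3 were called between the times, all of them lower, while 4.90% of 9332 genes were called and 2.57% were called as lower. The median log2FC was -0.15, against -0.0019 over all genes. Spred1 was at -0.17 (-0.32 to -0.02) with an adjusted p of 0.198. Intervals that held 0 were those of Etv5 (0.22, -0.02 to 0.46), Ccnd1 (0.08, -0.02 to 0.18), Phlda1 (-0.12, -0.29 to 0.04) and Etv4 (0.03, -0.19 to 0.25), and of Dusp4 (-0.64, -1.39 to 0.11) and Spry1 (0.13, -0.60 to 0.87). The time in culture and the harvest cannot be told apart in this design. Dusp6 with IFN-γ at 12 hrs (232 CPM) was close to its untreated level at 4 hrs (221 CPM).

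Other outputs of ERK were listed for comparison, namely 23 genes outside the 10, of which 18 were tested in this contrast. Of these, 5 were lower at 12 hrs and 0 higher, with a median log2FC of -0.020. Egr1, an immediate early transcription factor, was at 135 ± 7.84 CPM at 4 hrs and 39.9 ± 5.24 CPM at 12 hrs, the lowest log2FC of the list (-1.74, SE 0.13, adjusted p = 3.80e-18, edgeR). The others were Dusp5, a nuclear ERK phosphatase (log2FC -0.51), Trib1 (-0.50), Plaur, the urokinase receptor (-0.48), and Errfi1, an inhibitor of the EGF receptor (-0.33). In the same contrast 1 of 20 genes of the RAS-RAF-MEK-ERK core was called and was higher, Rras2 (0.26, adjusted p = 0.0432), a call that held under 3 of 5 alternatives and in 3 of 8 fits that left out 1 well each. Another list held 10 genes, namely D-type cyclins, their partners and other cell-cycle genes, among them E-type cyclins. Of these 2 were lower, Ccne1 (-0.65), which encodes cyclin E1, and Cdkn1a (-0.52), the gene for the kinase inhibitor p21. Of 7 receptor tyrosine kinases, 0 were called. The Ccne1 call was lost without untreated well 1 at 4 hrs (adjusted p = 0.0801) or at 12 hrs (0.0988).

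**Figure D4:**
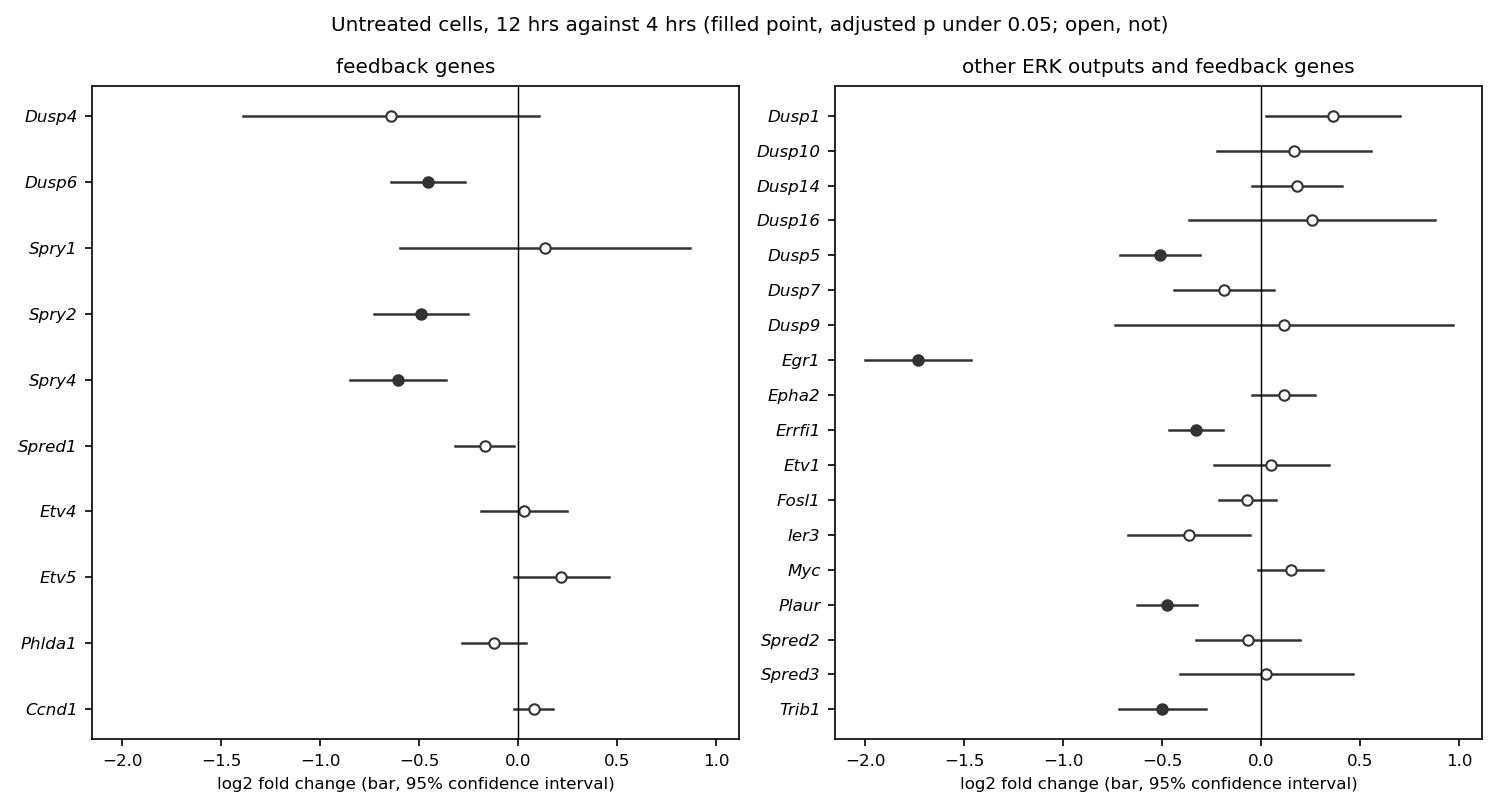
Log2 fold changes in untreated cells at 12 hrs against 4 hrs for the 10 feedback genes (left) and for 18 other outputs of ERK (right); bars are 95% confidence intervals and filled points have an adjusted p under 0.05. The filled points all lie below 0, with Egr1 at -1.74 the lowest and Spry4 at -0.61 the lowest of the 10 genes.

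The rest of the pathway was described with 4 lists of 66 genes in all, of which 55 were tested at 4 or 12 hrs and 21 were called in at least 1 of the 8 treatment comparisons. Of all 9251 genes tested at either time, 16.1% were called in at least 1 of them. The lists were chosen with earlier results of these data known, so that these shares are a description and not a test of the pathway. The shares of all genes called in single comparisons were 5.06% for IFN-γ at 4 hrs and 9.25% at 12 hrs, 1.64% and 2.41% for Activin-A, 0.810% and 1.03% for both factors against IFN-γ, and 6.07% and 9.62% for both factors against Activin-A. Those with the 10 lowest adjusted p are named by rule, and some others were named after their values were seen.

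In the RAS-RAF-MEK-ERK core, 20 of 21 genes were tested. IFN-γ raised 2 of them at 4 hrs, where 5.06% of all genes were called, Nras (log2FC 0.40, SE 0.09) and Rras2 (0.37, SE 0.09), both RAS-family GTPases, and lowered 1, Araf (-0.50, SE 0.14), which encodes a RAF kinase. The Araf call was lost with DESeq2 (adjusted p = 0.0709) and without untreated well 2 or 4 or IFN-γ well 3 (0.0608, 0.0661 and 0.0738). At 12 hrs IFN-γ raised 3 genes of the core and lowered 1, while 9.25% of all genes were called. Among them were Rras2 (0.33, SE 0.07) and Map2k1 (0.37, SE 0.09), the gene for MEK1, which was at 169 ± 9.15 CPM in untreated and 220.2 ± 14.7 CPM in IFN-γ wells. The others were Grb2 (0.36) and Hras (-0.25), whose calls held in 5 and 3 of 8 fits that left out 1 well each. Activin-A called 0 of the 20 at either time, also with both factors against IFN-γ. With both factors against Activin-A, 1 gene of the core rose at 4 hrs, Rras2 (0.73, SE 0.09, and 0.68 without the Activin-A well that stood apart). At 12 hrs 2 rose, Rras2 (0.32, SE 0.07) and Map2k1 (0.36, SE 0.09), and 1 fell, Mapk3 (-0.24, SE 0.08, adjusted p = 0.0437, edgeR), the gene for ERK1, which is named after its value was seen. The Mapk3 call held under 4 of 7 alternatives and in 1 of 8 fits that left out 1 well each, with adjusted p up to 0.145.

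Among the other outputs and feedback genes, IFN-γ called 0 of 18 at 4 hrs and raised 2 of 17 at 12 hrs, Egr1 and Dusp16, against 5.06% and 9.25% of all genes called. The Dusp16 call held in 2 of 8 fits that left out 1 well each. Egr1 rose from 39.9 ± 5.24 to 67.0 ± 16.2 CPM at 12 hrs (log2FC 0.71, SE 0.16), and with both factors to 77.3 ± 10.7 CPM against 36.4 ± 6.14 CPM with Activin-A alone (1.08, SE 0.16). With both factors against Activin-A at 4 hrs, 1 rose, Egr1 (0.37, SE 0.10), and 1 fell, Dusp5 (-0.35, SE 0.09, and -0.37 without the Activin-A well that stood apart). That Egr1 call was lost with DESeq2 (adjusted p = 0.0539), without Activin-A well 2, 3 or 4 (0.0565, 0.0554 and 0.0847) and without well 3 of both factors (0.0868), whereas without Activin-A well 1, the one that stood apart, the log2FC was 0.54 and the adjusted p 5.18e-05. At 12 hrs 3 rose, Egr1, Plaur (0.31, SE 0.08) and Fosl1, and 1 fell, Myc (-0.23, SE 0.07). The Fosl1 and Myc calls held in 3 and 2 of 8 fits that left out 1 well each, and Myc held under 3 of 7 alternatives. Activin-A called 0 of 18 at 4 hrs, raised 1 of 17 at 12 hrs and lowered 1. The gene raised was Dusp1, a stress-inducible phosphatase of MAP kinases, at 42.0 ± 3.96 CPM in untreated and 69.6 ± 6.17 CPM in Activin-A wells (0.74, SE 0.14). The gene lowered was Fosl1 (-0.27, SE 0.07), a call that held in 4 of 8 fits that left out 1 well each.

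Of the list of D-type cyclins, their partners and other cell-cycle genes, 10 of 10 were tested. Cdk6, the gene for a kinase that pairs with cyclin D1, rose with IFN-γ from 94.4 ± 14.1 to 186 ± 15.99 CPM at 4 hrs (log2FC 0.98, SE 0.11, adjusted p = 5.46e-11, edgeR) and from 87.9 ± 9.73 to 158 ± 6.43 CPM at 12 hrs (0.83, SE 0.10). With both factors against Activin-A its log2FC was 1.27 (SE 0.11) at 4 hrs, or 1.32 without the Activin-A well that stood apart, and 0.90 (SE 0.11) at 12 hrs. For IFN-γ, 1 of the 10 genes was called at 4 hrs and 2 at 12 hrs, all of them higher, against 5.06% and 9.25% of all genes. The other at 12 hrs was Cdkn1a. Its call held under 5 of 7 alternatives and in 3 of 8 fits that left out 1 well each. With both factors against Activin-A, 1 was higher at 4 hrs and 3 at 12 hrs, against 6.07% and 9.62% of all genes. Besides Cdk6, these were Ccnd3 and Ccne2, whose calls at 12 hrs held in 3 and 4 of 8 such fits. Activin-A lowered 1 of the 10 at 4 hrs, Cdkn1a (log2FC -0.43), and called 0 at 12 hrs. The Cdkn1a call for Activin-A was lost with DESeq2 (adjusted p = 0.0801), without the Activin-A well that stood apart (log2FC -0.38, adjusted p = 0.0621), without Activin-A well 4 (0.0712) and without untreated well 4 (0.123). The median log2FC of this list for IFN-γ was 0.20 at 4 hrs and 0.10 at 12 hrs, and for both factors against Activin-A it was 0.030 and 0.24.

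Of 12 receptor tyrosine kinases, 7 were tested. Fgfr1, a receptor for fibroblast growth factors, rose with Activin-A from 122 ± 17.8 to 193 ± 12.8 CPM at 4 hrs (log2FC 0.65, SE 0.10, adjusted p = 8.88e-06, edgeR, and 0.70 without the Activin-A well that stood apart) and from 100.8 ± 10.4 to 138 ± 15.5 CPM at 12 hrs (0.43, SE 0.10). With both factors it was above IFN-γ alone at 4 hrs (0.57, SE 0.10) and below Activin-A alone at 12 hrs (-0.46, SE 0.11). It was not called for both factors against IFN-γ at 12 hrs (0.09, SE 0.12) or against Activin-A at 4 hrs. The interaction at 12 hrs was -0.34 (adjusted p = 0.690, edgeR), so that a changed effect of Activin-A on Fgfr1 was not shown. Fgfr1 was the 1 receptor called for Activin-A at each time. IFN-γ called 0 of the 7 at 4 hrs, and 1 higher and 1 lower at 12 hrs, Igf1r and Egfr, which were named after their values were seen. Neither was called with DESeq2 (adjusted p = 0.208 and 0.118), and on leaving out 1 well at a time the calls held in 4 and 5 of 8 fits.

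**Figure D5:**
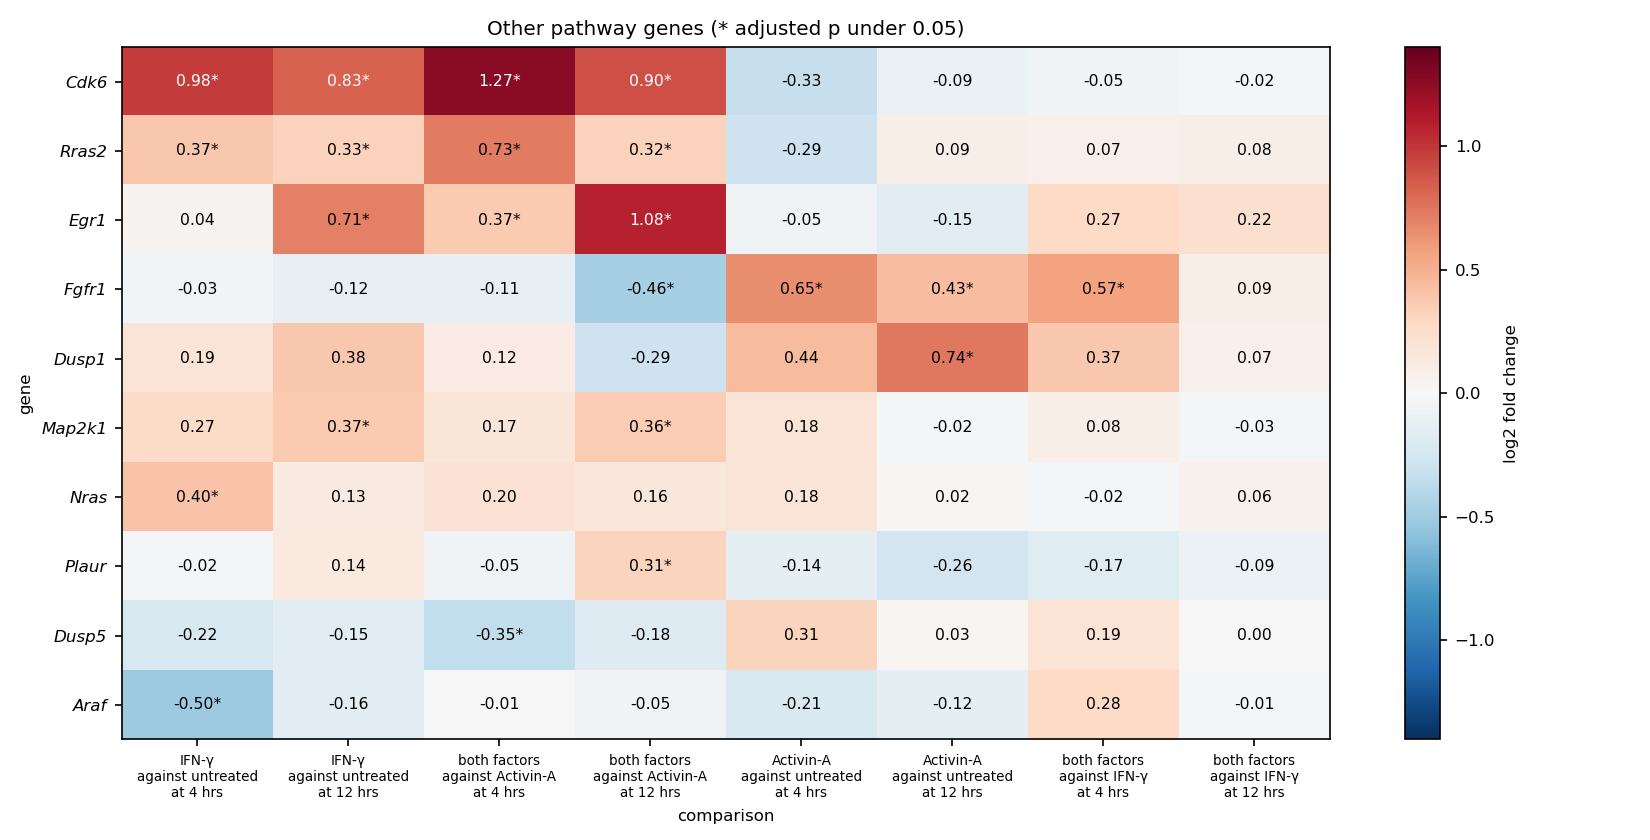
Log2 fold changes (color and number) of the 10 other pathway genes with the lowest adjusted p, by gene (rows) and treatment comparison (columns); an asterisk marks an adjusted p under 0.05. Cdk6 and Rras2 were called in the 4 comparisons for IFN-γ, with log2FC up to 1.27 and 0.73, and Fgfr1 was called in 3 of the 4 comparisons for Activin-A and in both factors against Activin-A at 12 hrs (-0.46).

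Group means of log2 CPM were used to find the genes with a pattern most like that of Dusp6 over the 8 groups, among 8627 genes with at least 10 counts on average. The highest Pearson coefficients were those of Fam208b (0.98), Traf2, an adaptor of TNF receptors (0.98), Gpaa1, a subunit of the enzyme that attaches GPI anchors (0.97), Ndufb7, a subunit of respiratory complex I (0.97), and Slc39a6, a zinc transporter (0.96). The feedback genes themselves were spread over the whole range. Phlda1 was the closest to Dusp6 (0.77, rank 308), followed by Spred1 (0.52), Ccnd1 (0.35), Spry2 (0.18) and Spry4 (0.15). Etv4 was at -0.12 and Etv5 at -0.85 (rank 8495), and Dusp4 and Spry1 had fewer counts than this ranking required. The coefficients rest on 8 points that come from the same wells, and they are a description.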

How the data were processed

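RNA of 32 wells of YUMM3.3 cells was measured by BRB-seq with paired-end reads. The table that the authors deposited holds unnormalized integer counts of each gene. Per the submitters' processing notes, STAR 2.7.10b, featureCounts and the GRCm39 (mm39) genome were used; the annotation release, strand setting and handling of unique molecular identifiers were not given in the sources used here. Of 12451 identifiers, 12437 had a symbol in the GRCm38 annotation of GENCODE.

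The members and lists were chosen with earlier results of these data known. Groups follow the labels. With edgeR 4.0.16 in R 4.3.3, genes were filtered with filterByExpr, normalized by TMM and tested by quasi-likelihood, fitting the 16 samples of 4 hrs or of 12 hrs, and all 32 where times were compared, with Benjamini-Hochberg adjustment over 9137, 8971 and 9332 genes. Intervals are at 95%, and a prior count of 2 was added for log2 CPM. P-values measure the spread between wells of 1 cell line, and floors cover counting error only. Besides the 10 members, the 10 genes of the other lists with the lowest adjusted p and the 5 genes most like Dusp6 were named by rule. Mapk3, Grb2, Hras, Cdkn1a, Ccnd3, Ccne2, Dusp16, Fosl1, Myc, Igf1r, Egfr and the genes called between the times in untreated cells were added after their values were seen. Alternatives were DESeq2 1.42.0 (the authors named version 1.36.0), RLE normalization, no filter, at least 10 counts in every sample, a replicate block, other sets of samples and each sample left out. The fits were tested on simulated data. A treatment check gene and a promoter motif that were also computed are not reported here. Plots used matplotlib 3.10.9.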

Additional observations from a re-analysis of the deposited data

Results flagged for a closer look

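In 7 of 80 groups of 4 wells, 1 well lay far from the other 3 by Dixon's criterion at the 95% level, where chance gives about 5%. Dusp4 was at 16.5 CPM in well 1 of Activin-A at 4 hrs, where the others were between 9.07 and 9.69, at 17.1 CPM in well 3 of both factors at 4 hrs (others 5.27 to 7.22) and at 15.4 CPM in untreated well 3 at 12 hrs (others 4.68 to 6.27). These values rest on 25, 18 and 14 counts. Spry2 was at 83.7 CPM in well 2 of both factors at 4 hrs (others 69.6 to 71.3) and at 69.0 CPM in well 2 of IFN-γ at 12 hrs (others 88.5 to 90.6). The same IFN-γ well was low for Etv4, at 115 CPM, where the others were between 135.5 and 138. Ccnd1 was at 1515 CPM in well 3 of Activin-A at 12 hrs (others 1611 to 1630.0).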

How the results depend on the processing

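Of 511 values of the feedback genes in the treatment comparisons, under the alternatives that keep all samples, 495 kept their direction with no call lost or gained, 11 lost a call, 4 gained one and 1 changed sign, uncalled in both (Etv4, both factors against IFN-γ at 12 hrs, -0.0020 with the replicate block). The 495 include values of Dusp4 and Spry1 that had no adjusted p and counted as uncalled. These were 1 value per gene for Activin-A and for both factors against IFN-γ, at 12 hrs. The number called for IFN-γ at 4 hrs fell from 2 to 1 with at least 10 counts in every sample, with the replicate block and with DESeq2, and Dusp6 remained. It rose to 3 with only the 8 samples compared, where Etv5 was added. For Activin-A at 4 hrs it fell from 1 to 0 with DESeq2 and with only the 8 samples compared. Leaving out each sample gave 1 to 3 calls for IFN-γ at 4 hrs, 0 to 1 for Activin-A at 4 hrs, 2 to 3 for both factors against Activin-A at 4 hrs and at 12 hrs, 2 to 3 between the times in untreated cells, 3 for IFN-γ and 1 for Activin-A at 12 hrs, and 0 in the other comparisons. The same replicate number did not pair the samples (mean correlation of deviations -0.0038 over 48 pairs, against 0.0013 over 144 pairs of other numbers). The block ended the call of Spry4 for IFN-γ at 4 hrs (adjusted p = 0.0597) and of Spred1 for both factors against Activin-A at 12 hrs (0.0509), and gave one for Phlda1 with IFN-γ at 12 hrs (0.0495). The cause of these changes was not tested. Of 608 leave-one-out values, 36 changed sign, none of them called in all samples. Their log2FC ranged, for Activin-A at 4 hrs, from -0.41 to 0.11 (Dusp4), -0.023 to 0.075 (Dusp6), -0.25 to 0.0072 (Spry4) and -0.065 to 0.020 (Ccnd1), and at 12 hrs from -0.077 to 0.67 (Dusp4), -0.16 to 0.039 (Dusp6), -0.12 to 0.020 (Spry2) and -0.12 to 0.035 (Etv5). For IFN-γ they ranged from -0.0083 to 0.15 (Phlda1, 4 hrs), -0.082 to 0.74 (Dusp4, 12 hrs), -0.053 to 0.048 (Spred1, 12 hrs) and -0.046 to 0.081 (Etv4, 12 hrs). For both factors against IFN-γ they ranged from -0.47 to 0.31 (Dusp4, 4 hrs), -0.011 to 0.16 (Etv5, 4 hrs), -0.11 to 0.083 (Spry2, 12 hrs) and -0.11 to 0.081 (Etv4, 12 hrs). For both against Activin-A they ranged from -0.17 to 0.020 (Etv4, 4 hrs), -0.013 to 0.19 (Etv4, 12 hrs) and -0.027 to 0.13 (Spry4, 12 hrs). Of the 43 calls of other pathway genes in the treatment comparisons and between the times in untreated cells, 257 of 282 values under the alternatives and 270 of 344 leave-one-out values stayed called, and 0 changed sign. DESeq2 lost 16 of the 43 calls, and the other alternatives 0 to 4. Depth limited Dusp4 and Spry1, with 9.62 and 7.94 counts per well on average.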
